A study of Mus musculus with 20 samples.

Results

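The immunoglobulin and plasma cell genes of the proximal colon (PC) were described in 20 mice of the inbred C57BL/6 strain. The set was made of every gene of the count table whose GENCODE gene type is an immunoglobulin segment, plus 5 genes of antibody assembly, secretion and transport (Jchain, Mzb1, Derl3, Pou2af1 and Pigr). It held 127 of the 12701 genes of the table. Of these, 122 were immunoglobulin segments: 56 heavy chain V segments, 53 kappa V segments, 2 lambda V segments, 4 heavy chain J segments, the heavy chain constant genes Igha, Ighm and Ighg1, the kappa constant gene Igkc, and the lambda constant genes Iglc1, Iglc2 and Iglc3. GENCODE lists 431 immunoglobulin genes in all, and those outside the table, like Tnfrsf17, were not analysed here. A mean of at least 10 counts per library was reached by 102 members, 9 had a mean under 3 counts, and 2 had 0 counts in every library.

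Mice were weaned at 3 to 4 weeks of age. Their first 6 weeks after weaning were spent on the Total Western Diet (TWD), a rodent feed modelled on survey data of human intake. The next 3 weeks were spent on the TWD holding 0, 2, 5 or 10% resistant potato starch (RPS), and each diet had 5 mice with 1 library per mouse. RPS is a raw starch that mostly reaches the large bowel undigested, where microbes ferment it. Libraries held 20581013 to 35083751 counts, of which immunoglobulin segments took between 0.0463% and 0.3796%, and a count of 3 stood at 0.086 to 0.146 CPM, which covers counting error only.

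Plasma cells are the antibody factories of the gut wall, and most of those in the colon make IgA. Each of them carries 1 joined V segment for its heavy and 1 for its light chain, and transcribes that V segment together with a constant gene. Constant genes thus report the class of antibody, and V segments report which segments are in use. Dimers of IgA are held together by the J chain (Jchain), and the polymeric immunoglobulin receptor (Pigr) on epithelial cells carries them into the lumen. A colon segment holds epithelium, muscle and immune cells together, and in such a sample fewer cells of a type and less RNA per cell cannot be told apart.

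V segment promoters share an 8-base element, the octamer, which is bound by POU factors together with the coactivator encoded by Pou2af1. In the 250 bases before the annotated start (GENCODE on GRCm39), the octamer ATGCAAAT or its reverse complement ATTTGCAT was found in 87 of 111 V segments (78.4%), against 1.34% of the 12559 other genes of the table and 1.52% of all protein-coding genes. Heavy chain V segments carried it in 47 of 56 promoters, every time as ATGCAAAT, with its first base a median of 107 bases before the start. Kappa V segments carried it in 38 of 53 promoters as ATTTGCAT, at a median of 90 bases. The orientation thus separated heavy chain from kappa segments, apart from 1 kappa segment that also held ATGCAAAT. It did not separate kappa from lambda, where 2 of 2 segments held ATTTGCAT. The median level of V segments with the octamer was 21.2 normalised counts and that of segments without it was 21.7. The stretch around the octamer is shown for V segments described below because they passed a test, and for Iglv1 as the lambda example, 5′ to 3′ along the gene with the octamer in capitals. Igkv8-28 also passed a test, but it held no octamer in these 250 bases and is not shown. The stretches lie at chr6:68279290-68279349 (plus strand) for Igkv2-109, chr6:68682022-68682081 (minus) for Igkv10-94, chr6:69704185-69704244 (minus) for Igkv5-48, chr12:115825994-115826053 (minus) for Ighv1-77 and chr16:18904282-18904341 (minus) for Iglv1.
Igkv2-109: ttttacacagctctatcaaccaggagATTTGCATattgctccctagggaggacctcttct
Igkv10-94: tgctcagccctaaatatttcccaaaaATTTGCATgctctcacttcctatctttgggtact
Igkv5-48: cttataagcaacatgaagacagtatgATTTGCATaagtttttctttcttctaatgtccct
Ighv1-77: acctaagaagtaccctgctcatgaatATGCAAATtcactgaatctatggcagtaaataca
Iglv1: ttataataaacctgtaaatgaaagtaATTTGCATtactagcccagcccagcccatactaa

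One library stood apart and touches every comparison with 0% RPS. The second 0% RPS library (0% RPS replicate 2) held 52145 normalised counts of Igha (counts divided by the DESeq2 size factor of the library), whereas the other 19 libraries held 7042 to 22761. Its summed immunoglobulin counts were 4.87 times the mean of the remaining 0% RPS libraries. Its value exceeded 2 times that mean for 74 of the 120 immunoglobulin segments with a count (61.7%), compared with 2.97% of all genes, and it was the highest of 20 libraries for 35 segments (29.2%, against 13.7% of all genes). In the same library the summed level of 8 of 8 macrophage markers was 4627 (2120 to 3458 in the other 19) and that of 8 of 8 smooth muscle markers was 291551 (122806 to 258075), and their part in the result was not tested. Its 4 measured B cell markers (Cd79a, Cd79b, Cd37 and Spib, of 15 listed) summed to 519, inside the range of 361 to 562 in the other 0% RPS libraries. Within that sum Cd79a (110.4, others 21.8 to 69.1) and Cd79b (78.1, others 12.4 to 52.7) were above every other 0% RPS library, and Spib (245.7, others 246.4 to 359.8) below. Of the epithelial markers, Car1 held 70115 there (239322 to 361131 in the other 0% RPS libraries) and Slc26a3 12364 (3595 to 5957), and the part of these genes in the result was not tested. Fits against 0% RPS were therefore also made without this library. It was set apart by the counts of the same genes, and leaving it out lowers the 0% RPS mean of genes high in it. The p-values without it thus show how a call depends on this library and are not separate evidence of a rise.

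**Figure D1:**
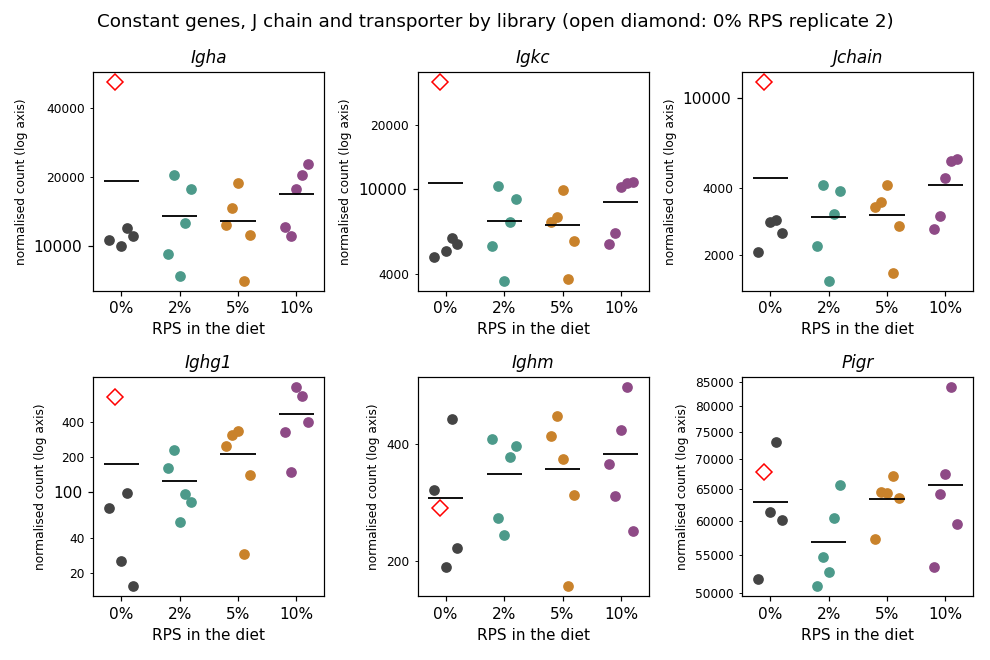
Normalised counts (log axis) of Igha, Igkc, Jchain, Ighg1, Ighm and Pigr in each of the 20 libraries by diet, with a bar at the diet mean and an open diamond for 0% RPS replicate 2. For Igha that library held 52145 and the remaining 0% RPS libraries 9958 to 11973, whereas for Ighm and Pigr it lay among the others.

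Among the heavy chain constant genes of the table, Igha dominated. On GRCm39 the heavy chain genes lie on the minus strand of chromosome 12 (Igha at chr12:113218450-113223856, Ighg1 at chr12:113288860-113294143), Igkc on the plus strand at chr6:70703419-70703950 and Iglc2 on the minus strand at chr16:19017146-19019101. Igha took 93.5 to 98.3% of heavy chain constant counts in every library, where these are the counts of Igha, Ighm and Ighg1 only. Other heavy chain constant genes, among them Ighg2b, were not in the table, so this is not a share of all antibody classes. Per kilobase of exon the mean level of Igha was 5835 normalised counts, against 178 for Ighm (IgM) and 94.6 for Ighg1 (IgG1). Igkc reached 15565 per kilobase, compared with 928 for Iglc1, 421 for Iglc2 and 252 for Iglc3.

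Igha, the IgA constant gene, did not differ between diets beyond the spread between mice. It held 10634, 52145, 9958, 11973 and 11045 normalised counts in the 0% RPS libraries and 9185, 20368, 7354, 12642 and 17804 in the 2% RPS libraries. At 5% RPS it held 12396, 14665, 18839, 7042 and 11195, and at 10% RPS 12134, 10992, 17736, 20461 and 22761. The diets overlapped, and replicate 2 alone set the 0% RPS mean of 19151 ± 18459 (SD, n = 5), which was 10902 ± 843 (n = 4) without it. The log2 fold change at 10% RPS was -0.19 ± 0.45 (SE; DESeq2 adjusted p = 0.853) with all libraries and 0.63 ± 0.31 (adjusted p = 0.206) without replicate 2, so the direction rested on that library and neither value passed the test.

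Igkc, the kappa light chain constant gene, and Jchain showed the same order. Igkc held 4819 to 5894 normalised counts in the 4 other 0% RPS libraries, 31694 in replicate 2 and 5557 to 10805 at 10% RPS. Its log2 fold change at 10% RPS was -0.29 ± 0.49 (DESeq2 adjusted p = 0.779) and turned to 0.70 ± 0.29 (adjusted p = 0.121) without replicate 2. Jchain held 2064 to 2876 in the 4 other 0% RPS libraries, 11831 in replicate 2 and 2620 to 5339 at 10% RPS, with log2 fold changes of -0.10 ± 0.44 (adjusted p = 0.923) and 0.68 ± 0.29 (adjusted p = 0.126). The ratio of Jchain to Igha ran from 0.194 to 0.282 over the 20 libraries, and the means by diet were 0.234, 0.222, 0.239 and 0.246 from 0 to 10% RPS. The ratio of Igkc to Igha was highest in replicate 2, at 0.608, against 0.453 to 0.592 in the other 19 libraries.

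Ighm, the constant gene of IgM, held 193 to 463 normalised counts at 0% RPS, with 273 in replicate 2, and 238 to 561 at 10% RPS. Its log2 fold change at 10% RPS was 0.38 ± 0.28 (DESeq2 adjusted p = 0.458) and 0.36 ± 0.29 (adjusted p = 0.491) without replicate 2. Pigr, the epithelial IgA transporter and the highest member at a mean of 62189, held 51767 to 73162 at 0% RPS, with 67771 in replicate 2, and 53432 to 83978 at 10% RPS. Its log2 fold change was 0.06 ± 0.11 (adjusted p = 0.785) and 0.09 ± 0.12 (adjusted p = 0.671), and neither gene passed the test.

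The call of Ighg1, the constant gene of IgG1, turned on that library. It held 73.5, 654, 25.5, 97.2 and 15.6 normalised counts at 0% RPS and 162, 232, 54.8, 96.3 and 81.6 at 2% RPS. At 5% RPS it held 251, 311, 336, 29.3 and 140, and at 10% RPS 326, 150, 801, 667 and 403. The 10% RPS libraries were all above every 0% RPS library other than replicate 2, and overlapped with the latter. With all libraries the log2 fold change at 10% RPS was 1.44 ± 0.81 (DESeq2 adjusted p = 0.316), and without replicate 2 it was 3.15 ± 0.66 (adjusted p = 0.000361). The trend per percent of RPS was 0.16 ± 0.07 (adjusted p = 0.196) and 0.29 ± 0.06 (adjusted p = 0.000436). Since replicate 2 was set apart by its high immunoglobulin counts, Ighg1 among them, the values without it show this dependence only.

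Ighg1 was also expressed as a share of the counts of Igha, Ighm and Ighg1, which cancels the total immunoglobulin level of a library. This share was 0.613 ± 0.439% at 0% RPS, 0.934 ± 0.469% at 2%, 1.45 ± 0.665% at 5% and 2.57 ± 1.15% at 10% RPS (SD, n = 5). Replicate 2 had the highest 0% RPS share at 1.23%, and the 10% RPS libraries ran from 1.31 to 4.22%, so these 2 diets did not overlap with all 20 libraries included. The share was computed after the values were seen and is a description with no test. Over the same diets Ighm took 2.15, 2.70, 2.61 and 2.25% on average.

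Of the lambda constant genes, Iglc2 passed a test at 5% RPS. It held 445, 605, 210, 312 and 616 normalised counts at 0% RPS and 110, 119, 259, 45.6 and 161 at 5% RPS. One 5% RPS library lay above the lowest 0% RPS library, and the log2 fold change of -1.66 ± 0.48 passed the test (DESeq2 adjusted p = 0.0382). It was -1.51 ± 0.51 (adjusted p = 0.0614) without replicate 2 and -1.66 with edgeR (adjusted p = 0.126). The call was also lost without 0% RPS replicate 4 or 5, or 5% RPS replicate 1, 2, 4 or 5 (-1.43 to -1.76, DESeq2 adjusted p = 0.0555 to 0.164), and no adjusted p was given without 2% RPS replicate 5, so that it held in 12 of the 20 fits that left out 1 library. At 10% RPS the Iglc2 fold change was -0.71 ± 0.48 (DESeq2 adjusted p = 0.408), or -0.57 (adjusted p = 0.539) without replicate 2. Iglc1 held 164 to 874 at 0% RPS and 310.4 to 1279 at 10% RPS, and Iglc3 held 36.4 to 306 and 51.2 to 449, and neither passed the test at 10% RPS with (DESeq2 adjusted p = 0.509 and 0.76) or without replicate 2 (0.245 and 0.692). The kappa share of light chain constant counts averaged 88.6, 94.0, 92.4 and 87.9% from 0 to 10% RPS, with a range of 78.4 to 96.0% over all libraries.

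Iglc2 and Iglc3 are near copies, and 7.65% of the 50-base windows of Iglc2 also occur in Iglc3. Over 314 coding bases they are identical at 303 (96.5%), with an identical run of 79 bases. A stretch of each is shown (GRCm39, minus strand, chr16:19017349-19017528 and chr16:18884178-18884357) with the bases that differ in capitals, since a read of 50 bases that spans none of them cannot be assigned.
Iglc2: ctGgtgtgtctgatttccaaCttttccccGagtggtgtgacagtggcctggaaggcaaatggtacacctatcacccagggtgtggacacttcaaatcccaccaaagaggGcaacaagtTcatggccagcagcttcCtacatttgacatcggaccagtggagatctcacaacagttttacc
Iglc3: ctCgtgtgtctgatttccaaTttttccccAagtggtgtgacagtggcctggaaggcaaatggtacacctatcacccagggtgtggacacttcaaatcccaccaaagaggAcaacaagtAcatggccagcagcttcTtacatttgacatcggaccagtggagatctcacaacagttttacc

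The genes of the secreting cell did not pass the test. Derl3, which acts in the degradation of misfolded proteins at the endoplasmic reticulum, held 41.5 to 72.7 normalised counts in the 4 other 0% RPS libraries, 150 in replicate 2 and 52.0 to 79.5 at 10% RPS. Its log2 fold change at 10% RPS was -0.17 ± 0.32 (DESeq2 adjusted p = 0.811) and 0.24 ± 0.27 (adjusted p = 0.649) without replicate 2. Pou2af1, the octamer coactivator, held 34.5 to 77.3 in the 4 other 0% RPS libraries, 135 in replicate 2 and 44.9 to 156 at 10% RPS, with log2 fold changes of 0.58 ± 0.48 (adjusted p = 0.523) and 0.96 ± 0.48 (adjusted p = 0.217). Mzb1, a chaperone of antibody-secreting cells, was near the detection floor at a mean of 3.04, and 45.2% of its 50-base windows also occur in Gm50318. Its values at 10% RPS (1.68 to 6.78) overlapped with those at 0% RPS (1.10 to 8.33).

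**Figure D2:**
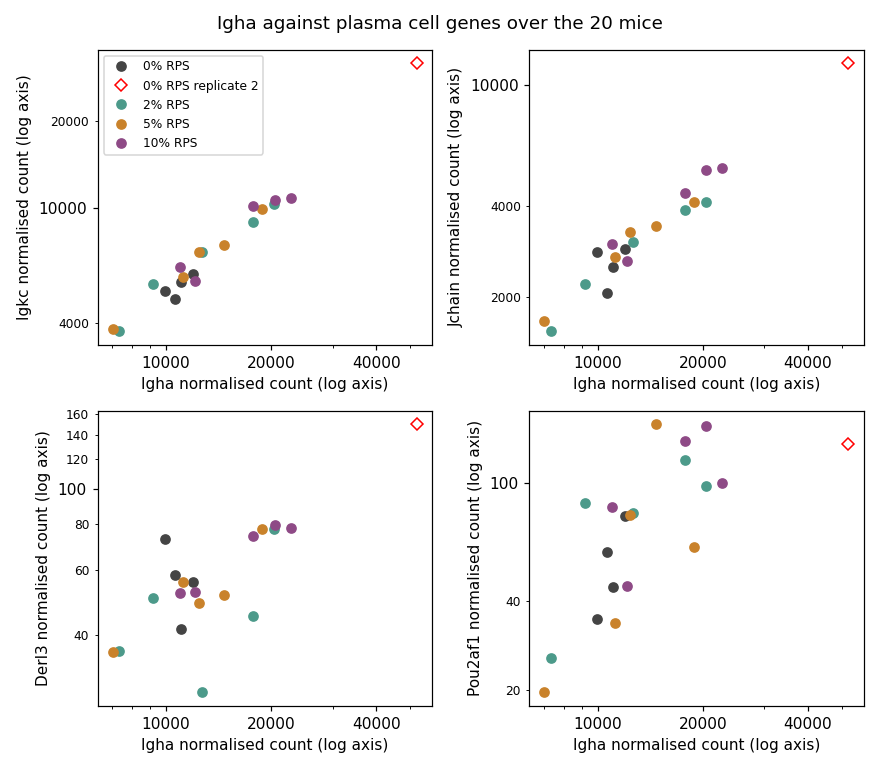
Normalised counts of Igkc, Jchain, Derl3 and Pou2af1 (each on a log axis) against those of Igha (log axis) in the 20 mice, coloured by diet, with an open diamond for 0% RPS replicate 2. Igkc and Jchain rose with Igha in a narrow band (r = 0.987 and 0.978), and Derl3 and Pou2af1 were more scattered.

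Over the 20 mice, the plasma cell genes followed Igha to different degrees. On the log2(normalised count + 1) scale, Pearson's r with Igha was 0.987 for Igkc, 0.978 for Jchain, 0.793 for Derl3, 0.713 for Pou2af1 and 0.520 for Mzb1, with Spearman's rho of 0.967, 0.944, 0.630, 0.735 and 0.346. Over the 7 relations tested (two-sided permutation test, 100000 permutations), the adjusted p of r was 3.5e-05 for Igkc and Jchain, from a raw p of 1e-05, the smallest these permutations can give. It was 0.000303 for Derl3 (raw 0.00013), 0.000665 for Pou2af1 (raw 0.00038) and 0.0261 for Mzb1 (raw 0.0186). The adjusted permutation p of rho was 3.5e-05 for Igkc and Jchain, 0.00628 for Derl3, 0.0011 for Pou2af1 and 0.136 for Mzb1. Pigr (r = 0.368, rho = 0.394) and the B cell receptor gene Cd79a (r = 0.363, rho = 0.374) did not pass, with an adjusted permutation p of 0.115 for r and 0.12 for rho in both. Without the 2 libraries farthest from the median of Igha (0% RPS replicate 2 and 10% RPS replicate 5), r was 0.975 for Igkc, 0.952 for Jchain, 0.602 for Derl3, 0.772 for Pou2af1, 0.404 for Pigr, 0.423 for Cd79a and 0.157 for Mzb1. The relation of Mzb1 rested on those libraries, and by rank so did that of Derl3 (rho = 0.494, adjusted permutation p = 0.0683). As deviations from diet means, r was 0.987 for Igkc, 0.980 for Jchain, 0.806 for Derl3 and 0.719 for Pou2af1.

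V segments were the larger part of the set and much lower in level. The median of the mean normalised counts was 19.2 for the 54 heavy chain V segments with a count and 27.7 for the 53 kappa V segments, and the 4 heavy chain J segments had means of 0.293 to 3.07. The highest heavy chain V segments were Ighv7-3 (132), Ighv1-39 (114) and Ighv1-26 (97.0), the highest kappa V segments Igkv10-96 (187), Igkv12-44 (121) and Igkv6-15 (105), and the lambda V segments were Iglv1 (180) and Iglv2 (62.8). None of these 8 passed the test in any diet contrast or in the trend with all libraries, and Igkv12-44 was given no p by DESeq2 because of an outlying library.

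For some of these segments, single mice set the level of a diet. Igkv12-44 held 786 normalised counts in 0% RPS replicate 2 and 18.7 to 39.4 in the remaining 0% RPS libraries. In the other diets its highest library held 169.5, 263 and 609.5 at 2, 5 and 10% RPS, where the lowest held 23.5, 3.26 and 34.9. Ighv7-3 held 10.0 to 209.5 in the 4 other 0% RPS libraries, 891 in replicate 2 and 19.8 to 380 at 10% RPS. Igkv10-96 reached 479 at 0% RPS, in replicate 2, and 636 at 10% RPS.

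Usage was spread over many of the V segments of the table in every mouse. Another 107 V genes of GENCODE were not in the table, so the numbers and shares given here are not those of all V segments. Between 43 and 51 heavy chain V segments and between 45 and 52 kappa V segments had a count in each library. The effective number of V segments, the exponential of the Shannon entropy of their counts, was 25.3 ± 1.46, 26.5 ± 5.40, 25.6 ± 4.13 and 25.3 ± 2.47 for the heavy chain from 0 to 10% RPS (SD, n = 5). For the kappa chain it was 25.6 ± 2.17, 24.2 ± 2.25, 25.6 ± 3.36 and 24.6 ± 4.93. The means of the diets lay within the spread between mice. Replicate 2, whose summed V levels were 4.28 (heavy) and 4.97 (kappa) times the mean of the remaining 0% RPS libraries, had 24.4 for the heavy and 24.9 for the kappa chain. The leading segment took 9.44 to 19.5% of heavy chain V counts and 8.87 to 21.7% of kappa V counts. It differed between mice: 10 heavy chain segments led in at least 1 library, Ighv1-39 in the most (5 libraries), and 11 kappa segments did, Igkv10-96 in the most (6 libraries).

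**Figure D3:**
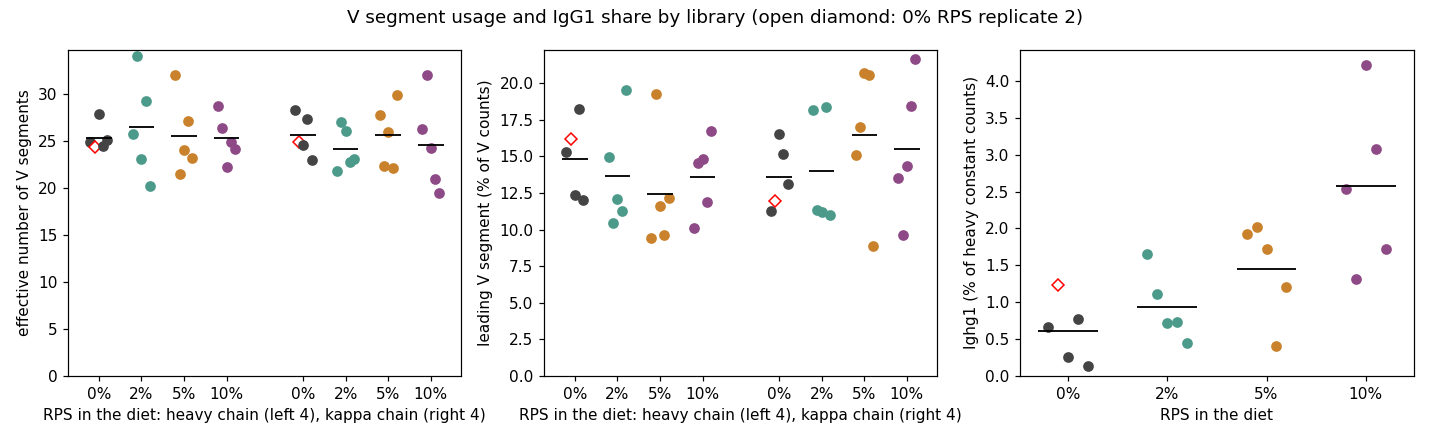
Effective number of V segments (left), share of V counts held by the leading segment in percent (middle), each for the heavy and the kappa chain, and Ighg1 in percent of heavy chain constant counts (right), by diet and library, with a bar at the diet mean and an open diamond for 0% RPS replicate 2. The effective number averaged 24.2 to 26.5 over the diets and chains, whereas the Ighg1 share averaged 0.613% at 0% RPS and 2.57% at 10% RPS.

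With all 20 libraries, few members passed the test for a difference from 0% RPS (DESeq2, adjusted p of 0.05 or less over all genes and a fold of 1.5 or more). At 2% RPS 0 of 116 tested members passed, against 0.0239% of all genes tested, and 23 members (19.8% of those tested, against 8.7% of all genes) had an unadjusted p under 0.05, 18 of them lower. edgeR passed 0 members there and 0% of all genes, with 20 members (19.2%, all genes 8.09%) at an unadjusted p under 0.05. At 5% RPS 1 member passed (Iglc2, against 0.438% of all genes), with 22 members (19%, all genes 16.6%) at an unadjusted DESeq2 p under 0.05. edgeR passed 0 there (0.0566% of all genes), with 18 members (17.3%, all genes 15.9%) at an unadjusted p under 0.05. At 10% RPS 3 members passed, all lower (0.9% of all genes), and edgeR passed 1 of them (0.323%). An unadjusted p under 0.05 was held there by 25 members with DESeq2 (21.6%, all genes 18.8%) and by 21 with edgeR (20.2%, all genes 18%), near the shares of all genes. In that DESeq2 fit independent filtering left 95 of the 116 tested members with an adjusted p. With that filtering off 4 members passed, 1 of them higher, and 115 of all 12561 tested genes. Between the starch diets, 0 members passed from 2 to 5% RPS (0% of all genes, 10 members at an unadjusted p under 0.05, 8.62% against 2.86% of all genes, and 9 with edgeR, 8.65% against 2.59%, which also passed 0 and 0% of all genes), 1 from 2 to 10% RPS (0.0557%; edgeR 0, with 0% of all genes and 21 members at an unadjusted p under 0.05, 20.2% against 8.52%) and 0 from 5 to 10% RPS (0.00796%, 15 members at an unadjusted p under 0.05 with either tool, 12.9% against 4.11% with DESeq2 and 14.4% against 3.72% with edgeR, edgeR also 0, with 0% of all genes). From 2 to 10% RPS an unadjusted DESeq2 p under 0.05 was held by 25 members (21.6% against 9% of all genes). In the linear trend over the 4 diets 4 of 108 tested members passed (4.29% of all genes), and 1 of them with edgeR (1.33%). For the trend, 24 members (22.2%, all genes 19.1%) had an unadjusted p under 0.05 with DESeq2 and 21 (20.2%, all genes 18.3%) with edgeR.

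The 3 members lower at 10% RPS were kappa V segments. Igkv2-109 held 17.6, 123, 221, 14.3 and 19.7 normalised counts at 0% RPS, 5.47 to 54.4 at 2% RPS and 20.9 to 53.5 at 5% RPS. At 10% RPS it held 3.13, 8.38, 4.65, 8.72 and 3.87, below every library of 0% and 5% RPS. Its log2 fold change was -3.77 ± 0.70 (DESeq2 adjusted p = 5.94e-05), -3.56 ± 0.74 (adjusted p = 0.00032) without replicate 2 and -3.74 with edgeR (adjusted p = 0.0314). The trend was -0.33 ± 0.07 per percent of RPS (DESeq2 adjusted p = 0.000388, edgeR adjusted p = 0.0441) and -0.32 ± 0.07 (DESeq2 adjusted p = 0.000991) without replicate 2. Against 5% RPS the 10% RPS log2 fold change of -2.75 ± 0.71 did not pass (DESeq2 adjusted p = 0.16). The 10% RPS call held without each single library, and without 0% RPS replicate 3 the fold change was -2.91 (adjusted p = 0.00206). However, 0% RPS replicates 2 and 3, at 123 and 221, set the mean of that diet, and no fit left out both. The other 0% RPS libraries (14.3 to 19.7) lay below every 5% RPS library (20.9 to 53.5), so the size of the fall is uncertain. Of its 50-base windows, 20.6% also occur in Igkv2-116, which was not analysed here.

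Igkv10-94 held 9.87, 60.4, 23.6, 108 and 143 normalised counts at 0% RPS and 16.7, 5.87, 15.1, 12.6 and 7.73 at 10% RPS. The lowest 0% RPS library lay within the 10% RPS range. The log2 fold change was -2.58 ± 0.70 (DESeq2 adjusted p = 0.0139), -2.62 ± 0.76 (adjusted p = 0.0136) without replicate 2 and -2.59 with edgeR (adjusted p = 0.0789). The contrast did not pass without 0% RPS replicate 4 (-2.36, DESeq2 adjusted p = 0.069), 0% RPS replicate 5 (-2.13, adjusted p = 0.115) or 10% RPS replicate 5 (-2.46, adjusted p = 0.0585). The trend was -0.23 ± 0.07 per percent of RPS (DESeq2 adjusted p = 0.0346; 0.0401 without replicate 2), and it was not past the test without either of the same 0% RPS libraries or without 10% RPS replicate 2, 3 or 5 (-0.18 to -0.24). Its count is uncertain, since 46.6% of its windows also occur in Igkv10-96 or Igkv10-95. Igkv10-96 held 168.8 on average at 0% RPS and 255.4 at 10% RPS, a difference of 0.60 ± 0.81 on the log2 scale (adjusted p = 0.722), or 1.49 (adjusted p = 0.258) without replicate 2.

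The coding bases of Igkv10-94 and Igkv10-96 are identical at 282 of 298 positions (94.6%), with an identical run of 82 bases. A stretch of each is shown (GRCm39, minus strand, chr6:68681610-68681789 and chr6:68609065-68609244), with the bases that differ in capitals, to show where the reads of the pair can be told apart.
Igkv10-94: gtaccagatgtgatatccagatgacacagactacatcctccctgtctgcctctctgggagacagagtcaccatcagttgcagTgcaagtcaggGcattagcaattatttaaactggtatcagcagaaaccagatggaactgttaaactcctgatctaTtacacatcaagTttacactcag
Igkv10-96: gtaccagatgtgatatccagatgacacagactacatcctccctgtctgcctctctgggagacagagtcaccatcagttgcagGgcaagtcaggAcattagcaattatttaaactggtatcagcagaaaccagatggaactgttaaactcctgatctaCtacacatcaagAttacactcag

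Igkv5-48 held 71.3, 226, 101, 66.1 and 52.9 normalised counts at 0% RPS and 17.7, 31.0, 14.0, 37.8 and 54.1 at 10% RPS, and 1 library of 10% RPS lay above the lowest of 0% RPS. Its log2 fold change was -1.74 ± 0.54 (DESeq2 adjusted p = 0.0351). Without replicate 2 it was -1.23 ± 0.53 (adjusted p = 0.132), and with edgeR -1.73 (adjusted p = 0.111). It also did not pass without 0% RPS replicate 4 (-1.86, DESeq2 adjusted p = 0.0522), 10% RPS replicate 1 (-1.59, adjusted p = 0.0766) or 10% RPS replicate 3 (-1.56, adjusted p = 0.129). None of its 50-base windows occur in another gene.

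**Figure D4:**
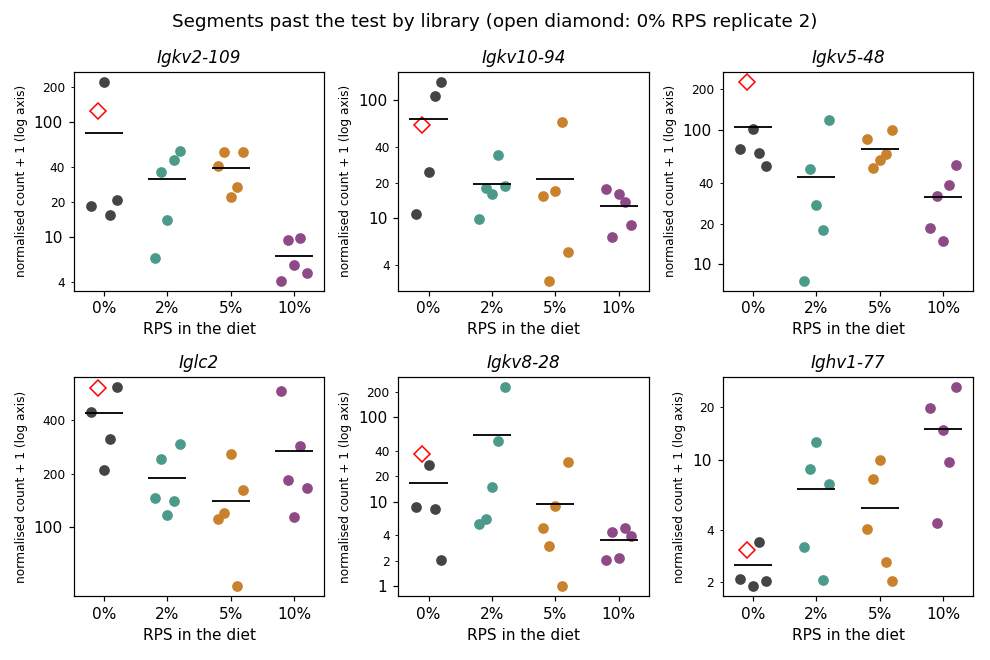
Normalised counts plus 1 (log axis) of Igkv2-109, Igkv10-94, Igkv5-48, Iglc2, Igkv8-28 and Ighv1-77 in each library by diet, with a bar at the diet mean and an open diamond for 0% RPS replicate 2. All 10% RPS libraries of Igkv2-109 (3.13 to 8.72 before 1 was added) lay below all of 0% RPS (14.3 to 221), and for Igkv10-94 and Igkv5-48 the diets overlapped.

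Igkv8-28 and Ighv1-77 passed elsewhere. Igkv8-28 held 4.38, 5.26, 14.0, 51.4 and 228 normalised counts at 2% RPS and 1.04, 3.35, 1.16, 3.88 and 2.90 at 10% RPS, and a single 2% RPS library set the mean of 60.6. From 2 to 10% RPS its log2 fold change was -4.61 ± 1.06 (DESeq2 adjusted p = 0.0198, edgeR adjusted p = 0.419), and its trend was -0.43 ± 0.12 (DESeq2 adjusted p = 0.0161, edgeR adjusted p = 0.152). The 2 and 10% RPS libraries did not overlap, but the contrast held in 11 of the 20 fits that left out 1 library. It did not pass without 2% RPS replicate 4 (-4.66, DESeq2 adjusted p = 0.0816) or 10% RPS replicate 5 (-4.67, adjusted p = 0.129). Independent filtering gave it no adjusted p in 7 others, those without 0% RPS replicate 4, 2% RPS replicate 1 or 5 (the latter being the library at 228), 5% RPS replicate 5 or 10% RPS replicate 1, 2 or 3. The trend did not pass without 10% RPS replicate 3 (-0.41, adjusted p = 0.0594) or replicate 5 (-0.43, adjusted p = 0.0535). Ighv1-77, the only member to rise in the trend with all libraries, held 0.909 to 2.39 at 0% RPS, below 3 in every library, and 18.8, 3.35, 14.0, 8.72 and 25.1 at 10% RPS. Its trend was 0.25 ± 0.07 per percent of RPS (DESeq2 adjusted p = 0.0166), 0.24 ± 0.07 (adjusted p = 0.0182) without replicate 2, and it did not reach the expression filter of edgeR. The trend did not pass without 10% RPS replicate 3 (0.25, DESeq2 adjusted p = 0.0548) or 10% RPS replicate 5 (0.21, adjusted p = 0.121), and DESeq2 gave no adjusted p without 0% RPS replicate 3, 5% RPS replicate 1 or 10% RPS replicate 1 or 2, so that it held in 14 of 20 such fits. Its groups at 0 and 10% RPS did not overlap, and DESeq2 gave no adjusted p for that contrast. Of its windows, 37.3% also occur in other genes, among them Ighv1-75, Ighv1-84 and Ighv1-80.

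The direction of the set as a whole depended on replicate 2. With it, the median log2 fold change of the members was -0.58 at 2% RPS, -0.84 at 5% RPS and -0.31 at 10% RPS, with 49 members higher and 76 lower at 10% RPS (all genes 6286 and 6284), while the median of all genes lay between -0.01 and 0.00. Without it, the medians were -0.02, 0.04 and 0.48 (all genes 0.00, -0.01 and 0.00), with 81 members higher and 44 lower at 10% RPS (all genes 6422 and 6147). Members share cells and reads, so these counts are not of independent genes. By class at 10% RPS, the median went from -0.38 to 0.27 for heavy chain V segments, from -0.45 to 0.48 for kappa V segments and from 0.38 to 0.63 for the 7 constant genes. The summed immunoglobulin counts were 36329 ± 35519 at 0% RPS (SD, n = 5), 20470 ± 2317 without replicate 2 (n = 4), and 24845 ± 10204, 23664 ± 8216 and 31625 ± 10061 at 2, 5 and 10% RPS. Single 10% RPS libraries also weighed on this direction. Their sums were 21831, 20538, 33379, 41096 and 41281, and the first 2 lay within the 18016 to 23464 of the 4 other 0% RPS libraries.

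**Figure D5:**
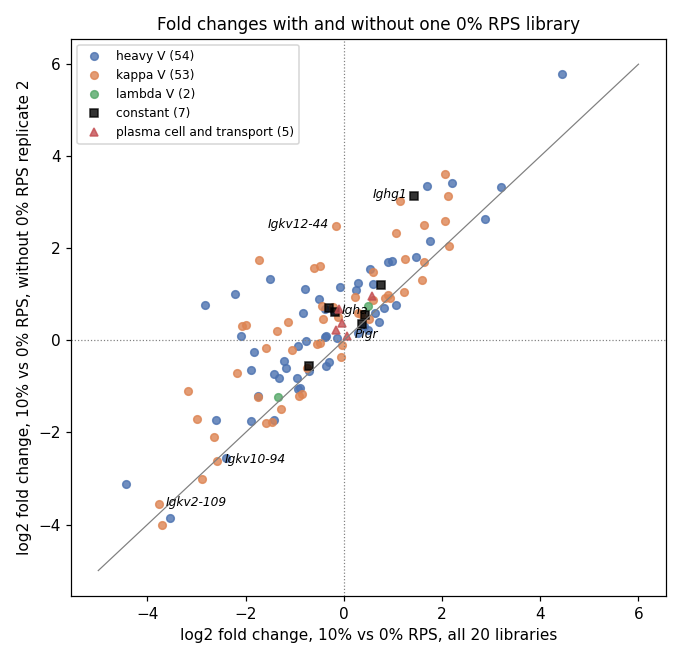
Log2 fold change at 10% against 0% RPS of each member with a value, with all 20 libraries (horizontal axis) and without 0% RPS replicate 2 (vertical axis), by class, with the line of equal values. Most points lie above the line, Igha moved from -0.19 to 0.63 and Ighg1 from 1.44 to 3.15, and Igkv2-109 lies at -3.77 and -3.56.

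Without replicate 2, more members passed at 10% RPS and in the trend, and they are named here after their values were seen. Because that library was set apart by its high counts of such genes, these calls describe the dependence on it. At 2% RPS 0 members passed (DESeq2, 0.0398% of all genes, 16 members at an unadjusted p under 0.05, 13.4% against 10.3% of all genes). At 5% RPS 1 passed, Ighv2-9-1 (0.827% of all genes), at 1.82 to 7.96 normalised counts in the 4 other 0% RPS libraries and 6.52 to 40.7 at 5% RPS, a log2 difference of 1.99 ± 0.61 (DESeq2 adjusted p = 0.0338). With replicate 2, which held 209, its fold change was -1.24 ± 0.88 (adjusted p = 0.484). At 10% RPS 6 passed (1.6% of all genes), Igkv2-109 and Igkv10-94 lower and 4 higher.

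The 4 that rose at 10% RPS without replicate 2 were Ighg1, described above, and 3 V segments. Ighv1-74 held 1.82 to 6.37 normalised counts in the 4 other 0% RPS libraries, 26.03 in replicate 2 and 3.35 to 71.5 at 10% RPS (log2 fold change 3.42 ± 0.95, DESeq2 adjusted p = 0.00979). Ighv9-3 held 6.22 to 16.7, 33.3 and 29.96 to 89.5 (2.15 ± 0.73, adjusted p = 0.0429). Igkv3-2 held 0.909 to 54.2, 93.7 and 62.6 to 192 (2.51 ± 0.85, adjusted p = 0.045). With replicate 2 the fold changes were 2.21, 1.75 and 1.64 and did not pass (adjusted p = 0.147, 0.123 and 0.273). These genes share 36.4, 23.2 and 21.3% of their windows with other segments of their families.

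In the trend without replicate 2, 10 members passed (6.43% of all genes), 6 of them rising. Igkv3-5 (mean 2.00 normalised counts in the 4 other 0% RPS libraries and 24.9 at 10% RPS), Igkv3-12 (3.55 and 21.3), Igkv6-25 (8.24 and 28.6) and Igkv3-2 were kappa V segments, beside Ighg1 and Ighv1-77. The 4 that fell were Igkv2-109, Igkv10-94, Igkv8-28 and Ighv1-34 (14.2 and 2.47). With replicate 2, the trends of Igkv3-5, Igkv3-12, Igkv6-25, Igkv3-2 and Ighv1-34 did not pass (DESeq2 adjusted p = 0.0608 to 0.177). Windows that also occur in other genes made up 51.4% of Igkv3-5, 58.4% of Igkv3-12, 45.6% of Igkv6-25 and 45.7% of Ighv1-34. Of the windows of Igkv3-2, 11.2% occur in Igkv3-5. The counts of these segments are therefore uncertain, and the Igkv3 segments may not be separate results.

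The pathway around the members was read from lists of B cell, plasma cell and IgA genes. With all libraries, 0 of 4 B cell genes, 0 of 13 plasma cell differentiation and secretion genes, 0 of 4 germinal centre genes, 0 of 10 genes of IgA induction, survival and homing, 0 of 5 follicle genes and 0 of 5 antibody receptors passed at 5% or at 10% RPS, also with no fold threshold (1.9% and 4.6% of all genes). Without replicate 2, 5 of the 13 plasma cell genes had an adjusted p of 0.05 or less, all higher, at 5% RPS (4.1% of all genes with no fold threshold) and at 10% RPS (7.66%). They were Xbp1, the transcription factor of the secretory programme, and the secretory pathway genes Creld2, Fkbp11, Sec11c and Edem1. At 10% RPS the log2 fold change was 0.33 ± 0.08 for Xbp1 (DESeq2 adjusted p = 0.00111), 0.64 ± 0.16 for Creld2 (adjusted p = 0.00375) and 0.77 ± 0.19 for Fkbp11 (adjusted p = 0.00229), and the last 2 also passed the fold threshold. With replicate 2 the values were 0.22, 0.41 and 0.42 (adjusted p = 0.161, 0.218 and 0.322).

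These secretory genes are also used by goblet cells of the epithelium. Muc2, the goblet cell mucin, went from 360373 ± 64775 in the 4 other 0% RPS libraries (650053 in replicate 2) to 586489 ± 163506 at 10% RPS, a log2 difference of 0.70 ± 0.17 without replicate 2 (DESeq2 adjusted p = 0.00225) and 0.49 ± 0.19 (adjusted p = 0.124, not past the test) with it. Over the 10 epithelial markers, all measured and Muc2 among them, the summed level was 894366 to 1058489 at 0% RPS and 1092593 to 1605743 at 10% RPS. That sum averaged 1329675 at 10% RPS, of which Muc2 took 586489. The median log2 fold change of the 10 markers at 10% RPS was 0.156, and 0.175 without replicate 2. The part of the epithelium in these results was not tested. With all libraries, Krt20 (0.47 on the log2 scale, DESeq2 adjusted p = 0.0193, and 0.015 without replicate 2) and Epcam (0.19, adjusted p = 0.00666, and 0.0138) of that list had an adjusted p of 0.05 or less at 10% RPS, below the fold threshold, and 0 of 8 macrophage and 0 of 8 smooth muscle genes did, with or without replicate 2. Of the B cell genes, Cd79a passed at 10% RPS without replicate 2 (40.4 ± 20.7 to 103 ± 32.6 normalised counts, log2 fold change 1.35 ± 0.45, DESeq2 adjusted p = 0.0416) and not with it (0.92 ± 0.46, adjusted p = 0.246). Cd79b passed in neither fit (1.04, adjusted p = 0.229, and 0.62, adjusted p = 0.54). Nor did Cd37 (0.78, DESeq2 adjusted p = 0.0625, and 0.75, adjusted p = 0.0678) or Spib, which was lower (-0.22, adjusted p = 0.499, and -0.15, adjusted p = 0.676). The 4 measured B cell genes summed to 361 to 562 in the 4 other 0% RPS libraries and 397 to 774 at 10% RPS, which overlap. The T cell list had 2 of 10 genes in the table, of which Lck passed at 10% RPS without replicate 2 and with no fold threshold (0.37, DESeq2 adjusted p = 0.0149) and not with it (0.29, adjusted p = 0.1), and its summed level was 173 to 228 at 0% RPS and 200.3 to 249.7 at 10% RPS.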

How the data were processed

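RNA of the proximal colon of 20 mice, 5 per diet, was read as single 50-base ends of stranded mRNA libraries. Counts were deposited unscaled, in 1 table keyed by Ensembl identifier. Per the study's methods, the authors removed low-quality bases, then aligned and counted in CLC Genomics Workbench on GRCm39. The table holds whole numbers with a column per mouse. The annotation, strand use, handling of reads with several matches and the choice of table genes are not stated, so counts of near-identical segments are uncertain. Diets came from the labels, and 12682 of 12701 identifiers were found in GENCODE M39.

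Differential expression used DESeq2 (version 1.42.0, R 4.3.3) on all libraries with diet, or percent RPS, as the only term, Benjamini-Hochberg adjusted over all genes, with Cook and independent filtering. Through them 11, 11 and 32 of the 127 members had no adjusted p at 2, 5 and 10% RPS, and 9 had no p because of an outlying library. edgeR (version 4.0.16, quasi-likelihood, TMM, expression filter) was the second tool. Both were tested on simulated data. Class sums, shares and effective numbers had no test. Correlations used permutations (scipy 1.17.1). Windows of 50 bases, promoters of 250 bases and sequences came from the GRCm39 genome and GENCODE. Labels do not give separate litters or cages, so p-values measure the spread between these mice.

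Named were all constant genes, the 5 plasma cell and transport genes, every member past a test with all libraries, and the 3 highest V segments per locus. Members past a test only without 0% RPS replicate 2 were named after their values were seen. The members, gene lists and that library were chosen with earlier results of these data known. Alternatives were TMM factors, size factors without members, a filter at 10 counts in 5 libraries, no Cook or independent filtering, no fold threshold or 2, 2 diets per fit, omission of 3 libraries numbered apart, and omission of each library. edgeR and Cook filtering off without 0% RPS replicate 2 were added after seeing the data.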

Additional observations from a re-analysis of the deposited data

Results flagged for a closer look

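In groups of 5 mice, a value was marked when its gap to the nearest other mouse took more of the range of its diet than the critical value of Dixon's test allows. This was applied to 140 groups (class sums, named genes and effective numbers in each diet) and marked 23 values, 15 of them in 0% RPS replicate 2. The critical value marks about 1 in 20 groups by chance only if values are normally distributed. The counts used here were not logged, the measures share reads and cells, and that library was known to be high. No excess over chance can therefore be read from these marks.

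For 0% RPS replicate 2 the marked sums, in normalised counts, were 53072 for heavy chain constant genes, 31694 for the kappa constant gene, 5498 for heavy chain V segments, 7338 for kappa V segments, 30.2 for heavy chain J segments and 99765 for all immunoglobulin segments. The marked genes there were Igha at 52145, Ighg1 at 654, Igkc at 31694, Derl3 at 149.9, Jchain at 11831, Ighv7-3 at 891, Igkv10-96 at 479, Igkv12-44 at 786 and Igkv5-48 at 226.

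In the other libraries, Igkv12-44 was marked in 2% RPS replicate 5 at 169.5, in 5% RPS replicate 1 at 263 and in 10% RPS replicate 4 at 609.5, so that this segment stood apart in 1 mouse of every diet. Igkv10-96 was marked at 296 in 2% RPS replicate 2, Igkv10-94 at 65.2 in 5% RPS replicate 4, and Igkv8-28 at 228 in 2% RPS replicate 5 and at 28.3 in 5% RPS replicate 5. The effective number of heavy chain V segments was marked at 27.9 in 0% RPS replicate 3.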

How the results depend on the processing

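No paired analysis was possible because the labels give the diets no shared replicate numbers. Counts of members passing the test depended on single libraries and on the tool. Leaving out each library in turn gave 0 to 2 members at 2% RPS, 0 to 4 at 5% RPS, 1 to 7 at 10% RPS, 1 to 10 in the trend, 0 to 1 from 2 to 5% RPS, 0 to 2 from 2 to 10% RPS and 0 to 1 from 5 to 10% RPS. With edgeR 0 members passed at 5% RPS, 1 at 10% RPS, 1 in the trend and 0 from 2 to 10% RPS. With Cook filtering off 2 passed at 5% RPS (Iglc2 and Ighv5-9, named after its value was seen) and 1 from 2 to 5% RPS. With independent filtering off 4 passed at 10% RPS, 1 of them higher. Fits of 2 diets alone gave 4 at 5% RPS and 5 at 10% RPS, and without 3 libraries numbered apart from the rest (2% RPS replicate 5 and 10% RPS replicates 4 and 5, the last 2 being the highest in Igha at 10% RPS) 1, 4 and 5 passed at 2, 5 and 10% RPS, with a member median of -0.79 at 10% RPS. With TMM factors 2 passed at 10% RPS and 0 from 2 to 10% RPS, where 4 members were given an adjusted p. In settings added after seeing the data, without 0% RPS replicate 2, edgeR gave 0 at 5% RPS, 4 at 10% RPS and 7 in the trend, and Cook filtering off gave 6 at 10% RPS and 10 in the trend. The causes were not tested. Without 0% RPS replicate 2, log2 fold changes at 10% RPS turned positive with edgeR and with Cook filtering off for Igha (0.62 and 0.63), Igkc (0.69 and 0.70), Derl3 (0.23 and 0.24), Jchain (0.68 and 0.68), Ighv7-3 (0.60 and 0.59), Igkv12-44 (2.47 and 2.48) and, with the latter only, Mzb1 (0.37). Without the 3 libraries they turned negative for Iglc1 (-0.14), Pigr (-0.028), Ighv1-39 (-0.009), Igkv10-96 (-0.14) and Iglv1 (-0.48). Leaving out each library gave, for those that changed sign, Igha -0.35 to 0.63, Igkc -0.48 to 0.70, Iglc3 -0.37 to 1.12, Derl3 -0.32 to 0.24, Jchain -0.28 to 0.68, Mzb1 -0.33 to 0.37, Pigr -0.04 to 0.13, Ighv7-3 -1.59 to 0.59, Ighv1-39 -0.21 to 1.24, Igkv10-96 -0.075 to 1.49 and Igkv12-44 -1.85 to 2.48. Counted by V family, the effective number was 4.4, 4.67, 4.23 and 4.88 (heavy) and 10.7, 10.8, 10.9 and 10.0 (kappa) from 0 to 10% RPS. The correlation of Igha with Mzb1 was 0.157 without the 2 farthest libraries and 0.293 without 0% RPS replicate 2. Depth limits the lowest segments, since 9 members had a mean under 3 counts, and 50-base reads limit segments with near copies.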
